A study of Mus musculus with 14 samples.

Results

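Pdgfra, Pdgfrb, Ddr2, Dcn, Lum, Postn, Thy1, Ly6a, Twist1 and Tcf4 are 10 genes listed here under stromal and fibroblast genes, and not each is an established marker. They were picked by name from 21887 protein-coding genes of the GRCm38 annotation, because Sca1+CD45- cells of the heart are largely stromal, and the rule that names them reads no peak value, though earlier results of these data were known when it was set. A peak was counted for a gene when it overlapped the gene body or the 5 kb on either side, and the nearest peak was sought out to 100 kb. By this count 4 of the 10 genes held a peak in at least 1 list (Pdgfra, Ddr2, Dcn and Tcf4), 7 had a peak within 100 kb, and Pdgfrb, Postn and Thy1 had no peak within 100 kb in any of the 12 lists.

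The study mapped BMI1 and H2AK119ub by chromatin immunoprecipitation and sequencing in Sca1+CD45- heart cells, enriched with magnetic beads from C57BL/6 mice of 6 to 8 weeks. Mice of the Damage group had been given 20 mg/kg paraquat in a single intraperitoneal injection, mice of the Homeostasis group PBS alone, and no transgene or mutation is named for either. There were 3 libraries each of Damage BMI1, Homeostasis BMI1, Damage H2AK119ub and Homeostasis H2AK119ub. The labels also describe a culture at 3% oxygen without saying whether the ChIP cells had been cultured. They do not say whether a library came from 1 mouse or a pool, or whether replicates were separate animals. A p-value here is the share of relabellings of the libraries that gave at least as large a difference between treatments. Differences between libraries of a group could be technical variation alone.

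BMI1 belongs to Polycomb repressive complex 1, which helps keep developmental genes silent, and H2AK119ub is a ubiquitin on a lysine of histone H2A, the mark that the catalytic subunits of such complexes place. In mammals these complexes are known mostly from CpG-rich promoters. Fibroblasts of the heart make and remodel the collagen matrix and are held to be marked by the receptors PDGFRA and DDR2, pericytes by PDGFRB, and Ly6a itself encodes Sca1, the antigen used to select these cells. Peak lists carry no expression, so whether the sorted cells expressed these genes, or CD45, could not be checked here.

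The promoters of these genes are the place where Polycomb occupancy would usually be looked for, so the 250 bases before the start listed by RefSeq (GRCm38.p6) are shown for the 4 genes with an entry in the promoter table, Pdgfra, Ddr2, Postn (its lower-coordinate start of the pair listed) and Twist1. They are written 5′ to 3′ on the strand of the gene, with each CG dinucleotide in capitals. The other genes are Pdgfrb, Dcn, Lum, Thy1, Ly6a and Tcf4. For Ddr2 the listed start, 170088944, lies inside the gene, whose higher-coordinate end is 170110836. For Pdgfra the listed start, 75152251, likewise lies inside the gene, whose lower-coordinate end is 75151322. The bases before these ends are not shown.
Pdgfra (chr5:75152001-75152250, plus strand): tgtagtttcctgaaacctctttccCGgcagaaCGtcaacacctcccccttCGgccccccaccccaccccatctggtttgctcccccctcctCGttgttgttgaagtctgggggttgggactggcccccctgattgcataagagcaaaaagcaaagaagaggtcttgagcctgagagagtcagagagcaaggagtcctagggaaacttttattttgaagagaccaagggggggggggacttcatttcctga
Ddr2 (chr1:170088945-170089194, minus strand): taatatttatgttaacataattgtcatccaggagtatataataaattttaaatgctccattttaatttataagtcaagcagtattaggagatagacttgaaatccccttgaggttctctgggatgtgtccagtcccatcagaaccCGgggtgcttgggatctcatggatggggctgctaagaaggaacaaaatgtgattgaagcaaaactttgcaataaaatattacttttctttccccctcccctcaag
Postn (chr3:54359017-54359266, plus strand): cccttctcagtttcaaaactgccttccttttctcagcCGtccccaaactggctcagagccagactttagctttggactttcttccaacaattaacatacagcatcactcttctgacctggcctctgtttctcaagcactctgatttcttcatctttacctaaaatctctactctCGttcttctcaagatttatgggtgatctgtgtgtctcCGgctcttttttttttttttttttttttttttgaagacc
Twist1 (chr12:33957421-33957670, plus strand): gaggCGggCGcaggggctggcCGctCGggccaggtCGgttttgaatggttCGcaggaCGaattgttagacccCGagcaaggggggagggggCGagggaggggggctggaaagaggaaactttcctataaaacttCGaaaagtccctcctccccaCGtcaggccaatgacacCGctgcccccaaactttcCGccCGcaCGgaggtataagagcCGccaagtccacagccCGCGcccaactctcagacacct

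The Twist1 stretch held 18 CG dinucleotides, and 21.7% of the 32851 promoter entries had as many or more. The Pdgfra stretch held 4, a number reached by 62.2% of entries, the Postn stretch 3 (71.0%) and the Ddr2 stretch 1 (92.1%), against a median of 6. The other Postn entry, with its start at 54361107 and not shown, held 4 (62.2%). CG reads the same on both strands, so each was counted once. No list of either treatment had a peak in the promoter window of these 4 genes, taken from 250 bases before to 50 bases after the start. That was the usual state in these lists: 0 of all promoter windows held a Damage peak and 28 (0.0852%) held a peak of any Homeostasis list, and the windows with a Homeostasis peak had a median of 4 CG. The absence of a peak in the windows shown therefore does not set these promoters apart from others.

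The Damage lists held 19 to 68 peaks and the Homeostasis lists 2000 to 13487, 39832 in all, and most peaks (92.6% or more of each list) were 101 bp wide. The deposited score was 1 for every peak, read depth is unknown, and intervals below cover the counting of peaks only. Because the Damage lists were so short, a count of 0 in them says little about any single gene: together they held 217 peaks, and at the share of peaks that fell on the 10 genes in the Homeostasis lists (18 of 39615, 0.0454%) they would have held 0.0986 peaks there.

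**Figure D1:**
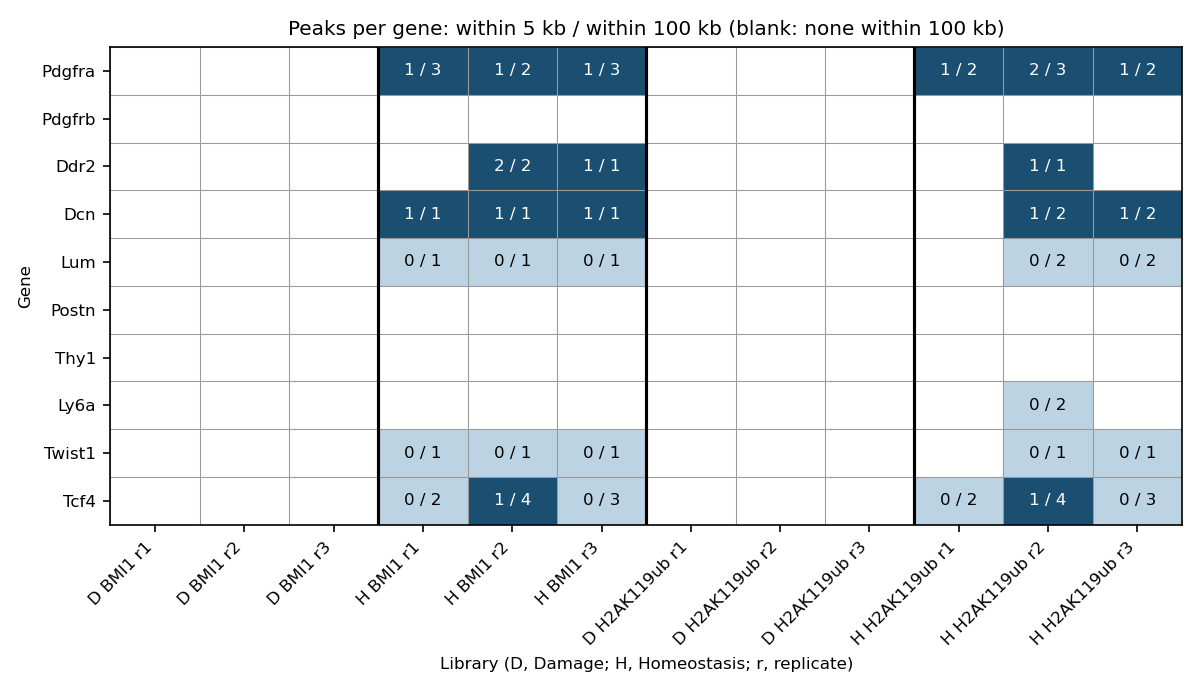
Peaks at each of the 10 genes (rows) in each of the 12 libraries (columns), written as the number within 5 kb and the number within 100 kb; dark cells have a peak within 5 kb, pale cells only within 100 kb, blank cells neither. The 6 Damage columns are blank, Pdgfra is dark in all 6 Homeostasis columns and Dcn in 5.

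After paraquat no member had a peak: each of the 3 Damage BMI1 lists and each of the 3 Damage H2AK119ub lists had 0 of the 10 genes within 5 kb, and 0 within 100 kb (1.13% of all protein-coding genes had a peak within 100 kb in any Damage list). In the Homeostasis BMI1 lists 2, 4 and 3 of the genes had a peak within 5 kb, and in the Homeostasis H2AK119ub lists 1, 4 and 2. Damage and Homeostasis did not overlap for either antibody. The difference, Damage minus Homeostasis, was -3.0 genes per library for BMI1 and -2.33 for H2AK119ub; the H2AK119ub value was -1.5 without Homeostasis H2AK119ub replicate 2, the longest list. Among all protein-coding genes 0.283% had a peak within 5 kb in any Damage list and 19.3% in any Homeostasis list, beside 0 and 4 of the 10 genes here. With a peak required in 2 or more of the 3 lists of a group, the Damage count was 0 for both antibodies (background 0.0137% for BMI1 and 0.00914% for H2AK119ub), and the Homeostasis count was 3 genes for BMI1 (Pdgfra, Ddr2 and Dcn; background 7.34%) and 2 for H2AK119ub (Pdgfra and Dcn; background 9.63%).

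The number of genes with a peak went broadly with the length of the list. The shortest Homeostasis list, H2AK119ub replicate 1 with 2000 peaks, had a peak at Pdgfra alone, and the longest, H2AK119ub replicate 2 with 13487 peaks, had peaks at Pdgfra, Ddr2, Dcn and Tcf4. Between them the order was broken: BMI1 replicate 3 with 4072 peaks had 3 genes, BMI1 replicate 1 with 5020 had 2, BMI1 replicate 2 with 7513 had 4 and H2AK119ub replicate 3 with 7523 had 2. The windows of the 10 genes, 758 kb in all, held 2.64, 6.6 and 3.96 peaks per Mb in the Homeostasis BMI1 lists, beside 1.6, 2.42 and 1.35 per Mb over the windows of all protein-coding genes. In the Homeostasis H2AK119ub lists they held 1.32, 6.6 and 2.64 per Mb, beside 0.642, 4.43 and 2.45. The members' density was higher in each of the 6 lists, but it rests on 1 to 5 peaks per list. A single site inside Pdgfra was in all 6 lists and one inside Dcn in 5, so the lists largely counted the same positions again. As shares of a list, the Homeostasis values ran from 0.0266% (exact 95% binomial interval 0.00322 to 0.096%) to 0.0737% (0.0152 to 0.215%), and 0 of 68 peaks, the longest Damage list, allows up to 4.41% by the limit of 3 counts.

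**Figure D2:**
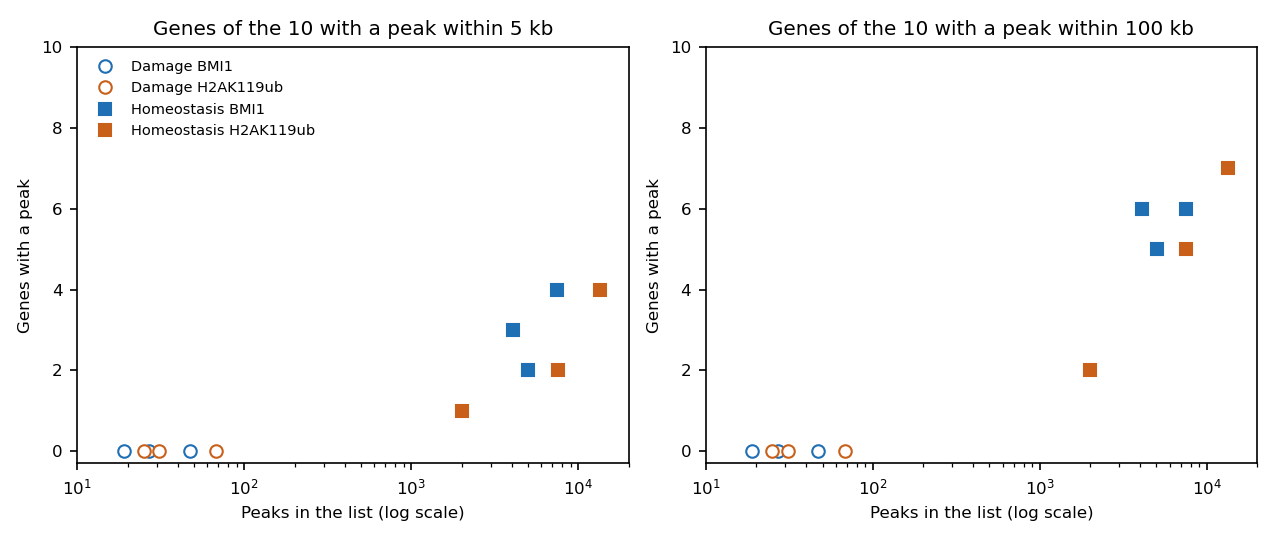
Number of the 10 genes with a peak within 5 kb (left) and within 100 kb (right) against the number of peaks in the list (log scale), 1 point per library. The 6 Damage lists sit at 0 with 19 to 68 peaks and the Homeostasis lists at 1 to 4 genes within 5 kb and 2 to 7 genes within 100 kb.

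Among the surface receptors, Pdgfra stood at the top of the list of 10. It encodes the alpha receptor for platelet-derived growth factor, a tyrosine kinase by which fibroblasts respond to PDGF ligands, and lies on chromosome 5 from 75151322 to 75198206. It had 0, 0 and 0 peaks in the Damage BMI1 libraries, against 1, 1 and 1 in the Homeostasis BMI1 libraries. With H2AK119ub it had 0, 0 and 0 peaks in the Damage libraries, against 1, 2 and 1 in the Homeostasis libraries. Every Homeostasis library was above every Damage library. Over both antibodies the difference was -1.17 peaks per library (0 of 6 Damage and 6 of 6 Homeostasis libraries with a peak). The exact two-sided permutation test with treatment permuted within antibody gave p = 0.005, the smallest its 400 arrangements allow, and adjusted p = 0.0182 (Benjamini-Hochberg) over the 2024 protein-coding genes with a peak in 3 or more of the 12 lists. This call is a common one: 49.8% of the genes tested were called lower after Damage, since a gene reached the test almost always through its Homeostasis peaks and then had to differ from near-empty lists. With the adjustment over all 21887 genes, tried after the data were seen, the adjusted p was 0.197 and 0 genes were called (1012 at an unadjusted p under 0.05); over all alternatives the adjusted p of Pdgfra ran from 0.0108 to 0.197. For 1 antibody alone the exact test of 3 against 3 libraries stops at p = 0.1. The length of a list and the treatment cannot be told apart.

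The peaks of Pdgfra were at a single place in all 6 Homeostasis lists. This site spans 75164038 to 75164145 on chromosome 5, inside the gene. It lies 11.8 kb past the listed RefSeq start and 12.8 kb from the lower-coordinate end of the gene. The 6 peaks began within 7 bp of each other, each 101 bp wide. Of the protein-coding genes, 2.55% had a peak within 5 kb in all 6 Homeostasis lists and 2.14% had a single site shared by all 6. In the length class of Pdgfra (35.9 to 57.1 kb), 6.58% of genes had a BMI1 peak in 2 or more of 3 Homeostasis lists and 9.1% an H2AK119ub peak. The annotation used gives gene boundaries without exons, so whether the site is intronic was not analysed here. A second place in the gene, 75157391 to 75157491, was listed by Homeostasis H2AK119ub replicate 2 alone, 5.19 kb past the start.

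A pair of further sites lay before the gene. The nearer, 75095064 to 75095168, was 56.2 kb from the gene and was listed by Homeostasis BMI1 replicates 1 and 3 and Homeostasis H2AK119ub replicate 1. The farther, 75079084 to 75079196, was 72.1 kb away, in all 3 Homeostasis BMI1 lists and in Homeostasis H2AK119ub replicates 2 and 3. Both were nearer to Gsx2, a homeobox gene of forebrain patterning, than to Pdgfra, the farther at 1.19 kb from Gsx2 and the nearer at 17.2 kb.

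Ddr2 encodes a receptor tyrosine kinase that is activated by fibrillar collagen (chromosome 1, 169972307 to 170110836). It had 0, 0 and 0 peaks in the Damage BMI1 libraries, against 0, 2 and 1 in the Homeostasis BMI1 libraries. With H2AK119ub it had 0, 0 and 0 peaks in the Damage libraries, against 0, 1 and 0 in the Homeostasis libraries. The groups overlapped at 0. The difference was -0.667 peaks per library over both antibodies (exact permutation p = 0.2, adjusted p = 0.201), with a peak in 3 of 6 Homeostasis libraries. Like Pdgfra, Ddr2 entered the test through Homeostasis peaks alone. With a peak in 2 BMI1 lists and 1 H2AK119ub list, the test could not give a smaller p even against empty Damage lists. Its failure to pass therefore decides nothing about Ddr2. The peaks fell at a pair of sites. The site at 170037383 to 170037486, 51.5 kb from the RefSeq start, was in Homeostasis BMI1 replicates 2 and 3 only, and the site at 170085890 to 170085991, 3.0 kb from the start and past it in the direction of the gene, was in replicate 2 of both Homeostasis groups. The second site is the closest that any peak came to a listed start of the 4 genes with a promoter entry. The start used for these Ddr2 distances, 170088944, lies inside the gene and is not its higher-coordinate end. At 139 kb Ddr2 falls in the longest of 10 length classes, where 33.7% of genes had a BMI1 peak in 2 or more Homeostasis lists, so a call there is frequent.

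Pdgfrb encodes the beta receptor of platelet-derived growth factor, the receptor of pericytes and vascular smooth muscle (chromosome 18, 61045127 to 61085067). It is close to Pdgfra in length, 39.9 kb against 46.9 kb, but had no peak within 100 kb in any list. Its nearest peaks in the Damage lists were 4.11 to 27.2 Mb away, in the 5 lists with a peak on that chromosome. In the Homeostasis lists they were 187 to 1220 kb away. Of the genes in its length class, 28.9% likewise had no Homeostasis peak within 100 kb.

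**Figure D3:**
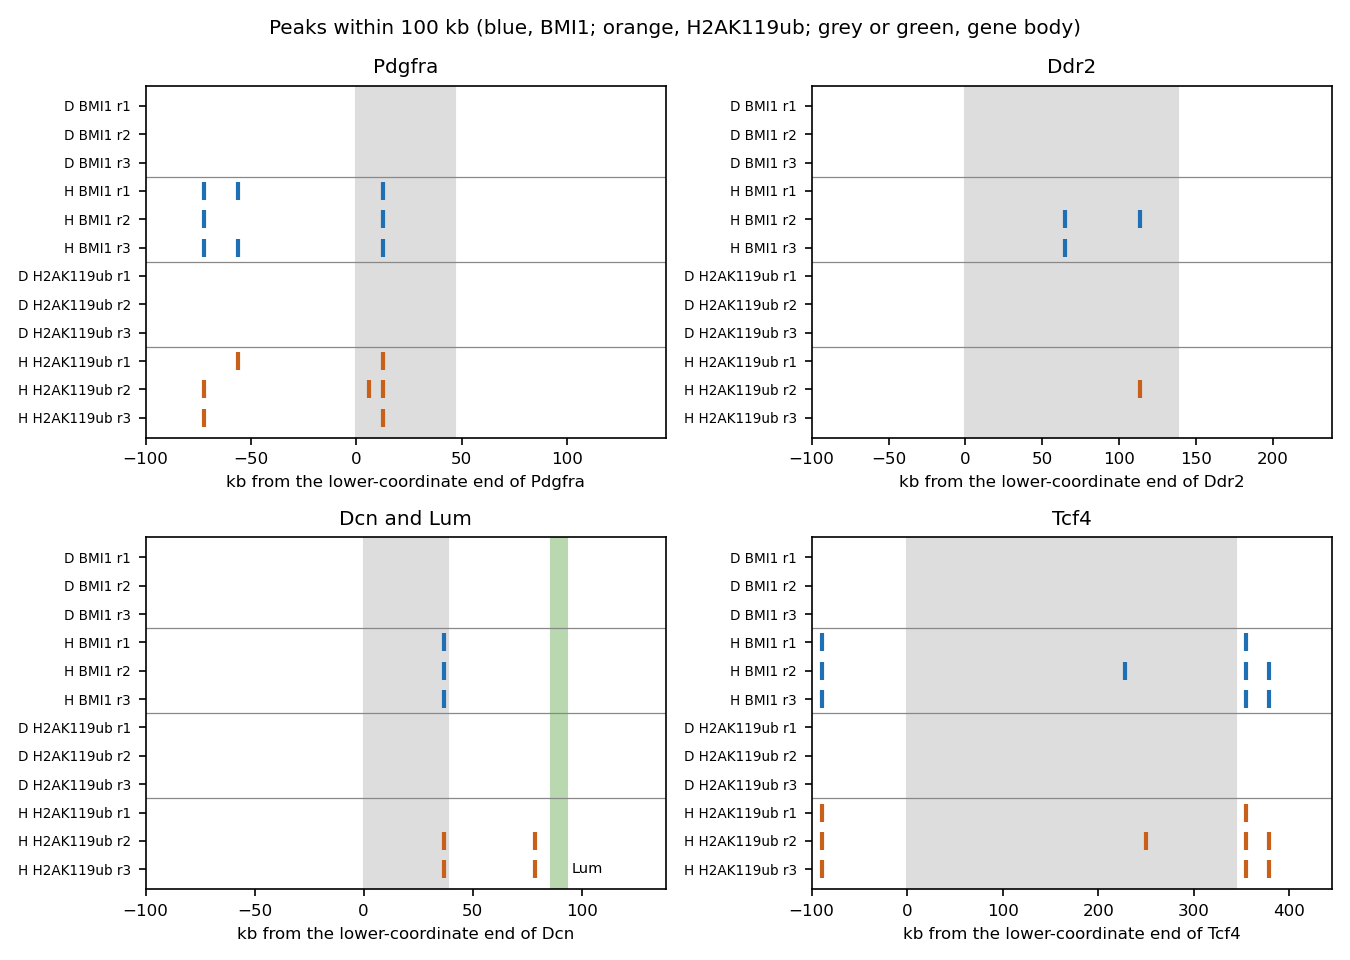
Peaks within 100 kb of Pdgfra, Ddr2, Dcn with its neighbour Lum, and Tcf4 (vertical ticks; x axis, kb from the lower-coordinate end of the gene; y axis, the 12 libraries; grey and green bands, gene bodies). Ticks stack in single columns across Homeostasis libraries at Pdgfra, at Dcn and on either side of Tcf4, and the Damage rows are empty.

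Of the matrix genes, Dcn was the one with a recurrent peak. Dcn encodes decorin, a small leucine-rich proteoglycan that binds collagen fibrils and is among the most used fibroblast markers (chromosome 10, 97479500 to 97518163). It had 0, 0 and 0 peaks in the Damage BMI1 libraries, against 1, 1 and 1 in the Homeostasis BMI1 libraries. With H2AK119ub it had 0, 0 and 0 peaks in the Damage libraries, against 0, 1 and 1 in the Homeostasis libraries. The groups did not overlap for BMI1, and overlapped at 0 for H2AK119ub through Homeostasis replicate 1. The difference over both antibodies was -0.833 peaks per library (5 of 6 Homeostasis libraries with a peak; exact permutation p = 0.02, adjusted p = 0.0402). Like Pdgfra, Dcn entered the test through its Homeostasis peaks alone, so the direction was set by the filter, and 49.8% of the genes tested were called. The call was lost when every gene with a peak in at least 1 list was tested (exact permutation, adjusted p = 0.0843) and when all protein-coding genes were (exact permutation, adjusted p = 0.434); over all alternatives the adjusted p ran from 0.0108 to 0.434. All 5 peaks lay at 97516145 to 97516258, beginning within 11 bp of each other, inside the gene and 1.96 kb from its higher-coordinate end. Among protein-coding genes 3.99% had a site shared by 5 or more Homeostasis lists within 5 kb.

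Lum encodes lumican, a related proteoglycan that also regulates collagen fibril assembly, and is the next gene on the chromosome (97565501 to 97572703). It had no peak within 5 kb, and the closest was just beyond that limit at 7.53 kb, in Homeostasis H2AK119ub replicates 2 and 3 (97557844 to 97557972). That site lies between Dcn and Lum, 39.7 kb from Dcn. For the 3 Homeostasis BMI1 lists the nearest peak to Lum was the one inside Dcn, 49.2 to 49.3 kb away, so the pair of neighbours shares its peaks and does not count as separate evidence. Postn encodes periostin, a matricellular protein made by activated fibroblasts after cardiac injury (chromosome 3, 54359267 to 54391041). It had no peak within 100 kb in any list. The nearest peaks were 16.2 to 50.0 Mb away in the Damage lists and 164 or 275 kb away in the Homeostasis lists, with 4 of the 6 Homeostasis lists at 275 kb and replicate 2 of both antibodies at 164 kb.

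The surface antigens had no peak within 5 kb. Thy1 encodes CD90, a surface glycoprotein of fibroblasts and T cells (chromosome 9, 44043384 to 44048579), and its nearest peaks were 8.55 to 58.1 Mb away in the 4 Damage lists with a peak on the chromosome, against 211 or 405 kb in the Homeostasis lists. Ly6a, which encodes Sca1 (chromosome 15, 74994877 to 74998031), had its nearest peaks 4.85 to 62.1 Mb away in the Damage lists and 7.98 to 371 kb away in the Homeostasis lists. The 2 peaks within 100 kb of Ly6a, at 7.98 kb on the higher-coordinate side (75006008 to 75006108, in the long non-coding RNA gene Gm28068) and 99.5 kb on the lower-coordinate side (74895306 to 74895406), were both in Homeostasis H2AK119ub replicate 2 and in no other list. The gene whose product was used to collect the cells thus had no peak near it that recurred in a replicate. Both genes are short, at 5.2 and 3.15 kb, and 3.52% and 3.11% of genes of their length classes had an H2AK119ub peak in 2 or more Homeostasis lists.

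Of the transcription factors, Twist1 had no peak within 5 kb and Tcf4 had scattered ones. Twist1 encodes a basic helix-loop-helix factor of mesenchymal development (chromosome 12, 33957671 to 33959831). Its nearest peak was 11.2 to 81.2 Mb away in the Damage lists. In the Homeostasis lists it was 89.3 kb away in 5 of the 6 (all 3 BMI1 and H2AK119ub replicates 2 and 3) and 457 kb in H2AK119ub replicate 1. That site, 34049110 to 34049217, lies inside Hdac9, the neighbouring gene for a class II histone deacetylase. The CG-rich promoter shown above had no peak in any list.

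Tcf4 encodes a basic helix-loop-helix E protein that pairs with factors such as Twist1 (chromosome 18, 69343429 to 69687967), and at 345 kb it is the longest of the 10 genes. It had 0, 0 and 0 peaks in the Damage BMI1 libraries, against 0, 1 and 0 in the Homeostasis BMI1 libraries. With H2AK119ub it had 0, 0 and 0 peaks in the Damage libraries, against 0, 1 and 0 in the Homeostasis libraries. Only replicate 2 of each Homeostasis group, the longest list of its antibody, had a peak in the gene, and the positions differed: 69571709 to 69571809 for BMI1 and 69593070 to 69593170 for H2AK119ub. With a peak in 2 lists Tcf4 was not among the genes tested. The recurrent sites lay just outside its window. A site 9.9 kb beyond the higher-coordinate end (69697869 to 69698030) was in all 6 Homeostasis lists, a site 34.4 kb beyond it (69722340 to 69722449) in 4, and a site 89.2 kb below the lower-coordinate end (69254116 to 69254236) in all 6. Tcf4 was the nearest protein-coding gene to each of them. With the window widened to 10 kb on either side Tcf4 would have had a peak in all 6 Homeostasis lists, and 4 genes instead of 3 would have been counted for BMI1.

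**Figure D4:**
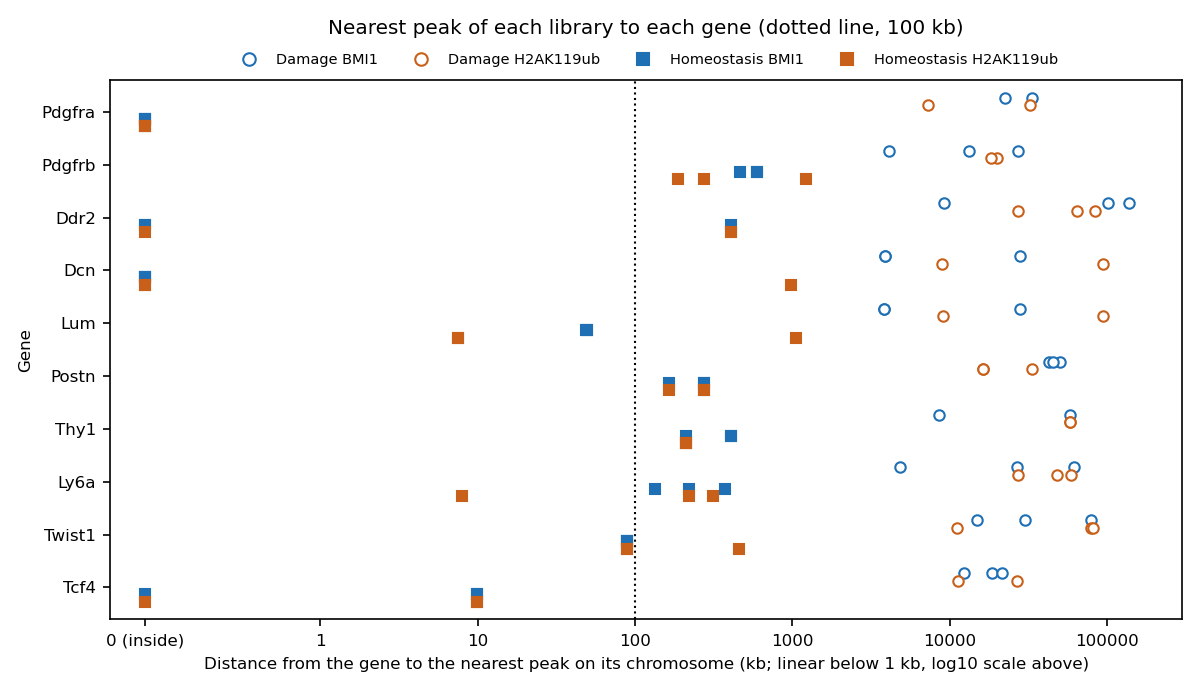
Distance from each gene to the nearest peak on its chromosome in each library (x axis in kb, linear below 1 kb and log10 above; open circles, Damage; filled squares, Homeostasis; blue, BMI1; orange, H2AK119ub; libraries with no peak on the chromosome are not drawn). Damage points lie between 3820 and 138000 kb and Homeostasis points between 0 and 1220 kb.

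For all 10 genes the nearest peak was farther in every Damage list than in every Homeostasis list. The same was true of 92.6% of all protein-coding genes, so the count is near its background. Within 100 kb, 0 of the 10 genes had a peak in 2 or more Damage lists for either antibody (background 0.0274% for BMI1 and 0.0228% for H2AK119ub). At homeostasis 6 of the 10 had a BMI1 peak within 100 kb in 2 or more lists (32.7% of all protein-coding genes) and 5 an H2AK119ub peak (42.0%). The BMI1 genes were Pdgfra, Ddr2, Dcn, Lum, Twist1 and Tcf4, and all but Ddr2 were also the H2AK119ub genes. For BMI1, Lum was counted here through the site inside Dcn alone, and for H2AK119ub also through the site 7.53 kb from Lum. A peak in at least 1 Homeostasis list was found within 100 kb of 7 of the 10 genes, beside 68.8% of all protein-coding genes.

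The sites were then compared between antibodies and replicates. Peaks within 100 kb of the 10 genes formed 16 separate sites, 7 of them within 5 kb of a gene. All 7 lay inside the gene body, which makes up most of the length of the windows. Both antibodies were listed at 9 of the 16 sites and at 3 of the 7. Of the 16 sites, 3 were in all 6 Homeostasis lists (inside Pdgfra and on either side of Tcf4), 6 were in 5 or 6 of them, and 5 were in a single list, of which 4 were in Homeostasis H2AK119ub replicate 2. Over the whole genome 14.3% of 17310 Homeostasis sites were in 5 or 6 lists, 7.18% in all 6 and 50.1% in a single list. A genome-wide share of sites with both antibodies is not given here. No site lay on a tRNA or 5S ribosomal RNA gene, and at the 11 sites in 2 or more lists the peaks began within 1 to 61 bp of each other. Without a genome of this build the bases under these sites were not read, and repeats there were not checked.

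At homeostasis most BMI1 and H2AK119ub peaks at the 10 genes, counted peak by peak, overlapped a peak of the other antibody. By position, both antibodies were listed at only 3 of the 7 sites within 5 kb. Most of the overlapping peaks were at the recurrent site inside Pdgfra and the one inside Dcn. The shares below therefore count the same positions again. Of the BMI1 peaks within 5 kb, 2 of 2, 3 of 5 and 2 of 3 in the 3 libraries overlapped an H2AK119ub peak by 1 bp or more, a mean of 75.6 ± 21.4% (SD, n = 3), beside 84.2 ± 5.36% over the windows of all protein-coding genes. Of the H2AK119ub peaks, 1 of 1, 3 of 5 and 2 of 2 overlapped a BMI1 peak, a mean of 86.7 ± 23.1%, beside 71.2 ± 19.0%. The BMI1 peaks without an H2AK119ub partner were both at 1 site of Ddr2 and the single one in Tcf4, and the H2AK119ub peaks without a BMI1 partner were the second place in Pdgfra and the single one in Tcf4. The differences from all genes were smaller than the SD between libraries at the 10 genes, which rests on 1 to 5 peaks per library. For BMI1 the difference was larger than the SD over all genes, 5.36%.

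**Figure D5:**
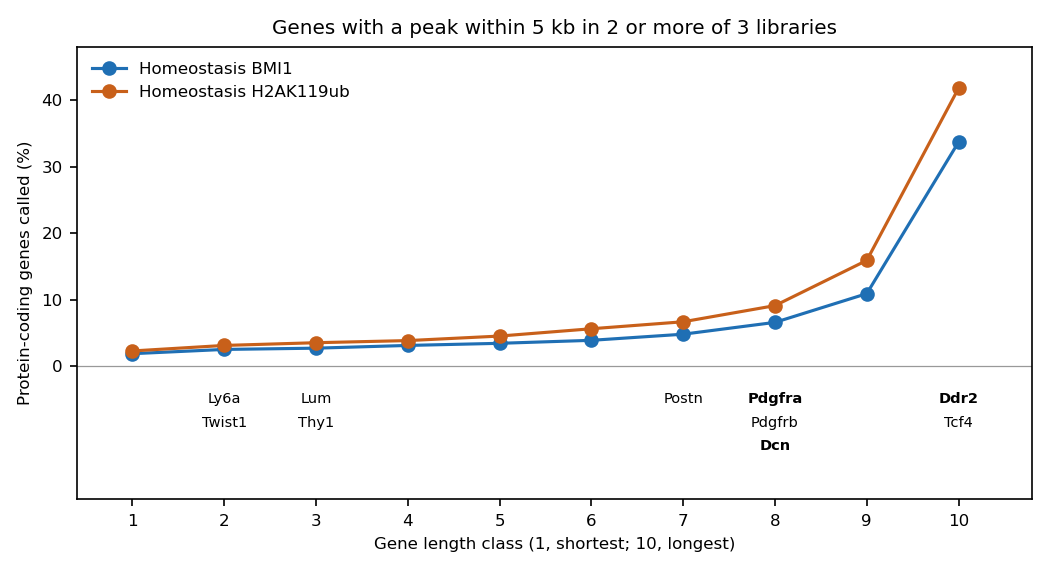
Share of protein-coding genes with a peak within 5 kb in 2 or more of 3 Homeostasis libraries (y axis, percent) in each of 10 classes of gene length (x axis; blue, BMI1; orange, H2AK119ub), with the 10 genes written under their class and those called for either antibody in bold. The share goes up from 1.87% and 2.28% in the shortest class to 33.7% and 41.8% in the longest, and the called genes are in classes 8 and 10.

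Other genes were examined beside the 10, in lists of related families, of further fibroblast and pericyte genes and of 3 other cell types. Of the 78 genes listed, 0 had a peak in any Damage list, 8 had a BMI1 peak in 2 or more Homeostasis lists (7.34% of all protein-coding genes did) and 9 an H2AK119ub peak (9.63%). Endothelial and cardiomyocyte genes supplied 5 of the 8 and 5 of the 9. Gene by gene, 8 were tested and 5 called lower after Damage, beside 49.8% of all genes tested; all 8 entered the test through Homeostasis peaks alone, so the direction was set by the filter and the adjusted p-values below add nothing to the counts. Among the PDGF ligands, 1 of 4 was called at homeostasis: Pdgfd, whose product activates PDGFRB, with 0, 0 and 0 peaks for BMI1 and 0, 1 and 1 for H2AK119ub. At 366 kb Pdgfd is in the longest length class, where 41.8% of genes were called for H2AK119ub. Of the 8 other small leucine-rich proteoglycans, Bgn, which encodes biglycan, was the one with peaks, at 1, 1 and 1 for BMI1 and 0, 1 and 1 for H2AK119ub, the same pattern over libraries as Dcn (adjusted p = 0.0402, exact permutation). Kera and Epyc, neighbours of Lum, had no peak. Of 18 further fibroblast genes 2 were called at homeostasis. Cd44, the hyaluronan receptor, had 1, 1 and 2 BMI1 peaks and 1, 1 and 1 H2AK119ub peaks (adjusted p = 0.0182, exact permutation), and Wt1, a factor of the epicardium, had 0, 1 and 1 for each antibody (adjusted p = 0.111). The 9 genes of the Ly6 family, the 5 pericyte genes, the periostin relative Tgfbi and the 6 leukocyte genes had no peak within 5 kb in any list, and of the 5 related receptor kinases and the 10 helix-loop-helix and Id genes, 2 each had a peak in at least 1 list but 0 were called.

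Genes of other cell types also held peaks. Of 6 endothelial genes 4 were called at homeostasis for both antibodies, beside 7.34% (BMI1) and 9.63% (H2AK119ub) of all protein-coding genes. Emcn had 3, 2 and 1 BMI1 peaks and 1, 3 and 2 H2AK119ub peaks, and Flt1 had 1 peak in each of the 6 lists. Pecam1 and Tie1 each had 1, 1 and 0 for BMI1 and 0, 1 and 1 for H2AK119ub. In the longest class, which holds Flt1 at 165 kb, 33.7% and 41.8% of genes were called. The shares were 10.9% and 15.9% in the class of Emcn (90.0 kb) and Pecam1 (61.1 kb), and 3.88% and 5.62% in that of Tie1 (18.7 kb). Of 6 cardiomyocyte genes Ryr2, the calcium release channel gene and very long at 554 kb, was called, with 2, 2 and 1 BMI1 peaks and 2, 3 and 2 H2AK119ub peaks. The difference between the lists was not tested.

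The pattern of Pdgfra over the 12 libraries, 1 peak in 5 of the Homeostasis lists and 2 in H2AK119ub replicate 2, was shared exactly by 45 other protein-coding genes, where likeness was the sum of absolute differences in the number of peaks over the 12 libraries. The 5 nearest in length were Scd3, Begain, Cep164, Rasgrp1 and Scube2, all at a sum of 0.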

How the data were processed

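BMI1 and H2AK119ub ChIP-seq of Sca1+CD45- mouse heart cells was used as 12 deposited peak lists, 3 per combination of treatment and antibody; the 2 Input libraries were not analysed here. Bowtie2, HOMER 4.8 and the build GRCm38 are named in the submitters' processing notes; no calling threshold was found in the labels. The authors deposited 1 list per library, with positions and a score, whose value of 1 throughout ranks nothing.

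Starts were converted to count from 1. Genes were 21887 protein-coding genes of a RefSeq table of GRCm38.p6. All 10 members matched it; 4 matched the RefSeq promoter table. A gene was called in a group with a peak within 5 kb in 2 or more of 3 libraries. The per-gene test was an exact two-sided permutation of treatment within antibody (400 arrangements) on the mean number of peaks, with Benjamini-Hochberg adjustment. It was tried on simulated counts with larger changes than those of the 10 genes and, for unchanged genes, equal means in both treatments. That check therefore does not cover lists as unequal in length as these. Sites were peaks merged by an overlap of 1 bp. Named genes were all members, and listed genes called at homeostasis or with a Damage peak. Members and lists were chosen with earlier results of these data known. Alternatives were the gene window, consensus rule, overlap, filter, replicate block and leaving out each library. Computation used Python 3.11.15, numpy 2.4.6, pandas 2.3.3, scipy 1.17.1 and matplotlib 3.10.9.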

Additional observations from a re-analysis of the deposited data

How the results depend on the processing

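Depth is unknown, so list length limits what a count of 0 after Damage can show. The count of genes called at homeostasis moved with the window: with 100 kb it was 6 for BMI1 and 5 for H2AK119ub, and with 10 kb 4 for H2AK119ub. For H2AK119ub it was 4 when 1 library of 3 sufficed and 1 when all 3 were required; leaving out single libraries, with a peak in 1 of the 2 left then sufficing, gave 3 to 4 for BMI1 and 2 to 4 for H2AK119ub (4 without Homeostasis replicate 1 or 3), a move that the looser requirement allows, and 0 after Damage throughout. The difference in genes per library was -5.67 for BMI1 with 100 kb, and -4.0 and -4.67 for H2AK119ub with 10 and 100 kb; without single libraries it was -3.5 to -2.5 for BMI1 and -3.0 to -1.5 for H2AK119ub. The per-gene test called 1008 genes, 555 when genes with a peak in 1 or more lists were tested and 0 over all protein-coding genes (1012 at an unadjusted p under 0.05 in each), since more genes enter the adjustment; leaving out single libraries gave 857 to 1429. With the replicate number as a block, the replicate block test called 0 genes (556 at an unadjusted p under 0.05), Pdgfra at adjusted p = 0.114 and Dcn at 0.125 by exact permutation, but its 64 arrangements cannot give a p under 0.0312. The labels do not say that numbers pair samples. Same-numbered Damage and Homeostasis libraries had deviations correlated between -0.034 and 0.029 over genes. Each Damage list had a peak within 5 kb of only 5 to 21 protein-coding genes, so this correlation cannot tell whether samples were paired. The overlap share of BMI1 peaks was 63.4 to 83.3% without single libraries. Counting presence only or merging peaks within 1 kb left Pdgfra and Dcn called by the per-gene test and Ddr2 not called. Using peak centres or leaving out tRNA and 5S genes (the last chosen after seeing the data) kept the counts of genes to which they applied. A stricter score threshold was not run, since the score is constant.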
